A study of Homo sapiens with 14 samples.

Results

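Peaks of an anti-ZNF143 antibody inside genes that were called before, but not after, depletion of ZNF143 are described here. HEK293T is an established human embryonic kidney line, and the cells used, the single clone HEK_CloneZD29, carry ZNF143 fused to an inducible FKBP12F36V degron tag in both conditions, so that there are no cells with untagged ZNF143 in the comparison. The Proteintech antibody, raised against ZNF143, was used for ChIP-seq of 4 samples without treatment and of 4 exposed to dTAG-V1, a compound that brings the tagged protein to degradation, at 0.5 µM over 30 min. For each condition a single list of narrow peaks was deposited. In the paper, peaks of both conditions were merged into a single set for this antibody. That set was compared with peaks of an antibody against HA, a tag that the fused ZNF143 also carries. The authors concluded that the Proteintech antibody cross-reacts with CTCF. In their tracks, CTCF-bound places still gave signal once ZNF143 was depleted, even more than before, and the HA antibody gave none there. CTCF ChIP-seq of the same clone (3 untreated and 3 treated samples) was not analysed here.

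The peaks were selected on the comparison of the lists. A peak of the untreated list was taken when no peak of the dTAG-V1 list overlapped it by 1 bp, when its centre lay outside the window from 2 kb upstream to 1 kb downstream of every annotated transcription start site (TSS), and when its centre lay inside a protein-coding gene. This gave 1906 of the 20429 peaks of the untreated list, called intragenic untreated-only peaks below. In the whole untreated list 26.8% of the peaks had no overlap with the dTAG-V1 list, and among the 5443 peaks that lay inside genes away from start sites it was 35.0%. These shares are those of the rule and nothing is read from them. The lists hold no values per replicate and no read counts, so that depth is unknown, no peak can be set against the spread between replicates, and a peak near the calling threshold can be present in 1 list and missing in the other without a change of binding.

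ZNF143 is a zinc finger transcription factor that activates promoters of many housekeeping genes and of small nuclear RNA genes. It contacts DNA through a long element, the SBS, in which the trinucleotide core CCC is flanked on the 5′ side, in a part of the sites, by the letters ACTACA. Sites with this 5′ part are called SBS2 and sites without it SBS1. CTCF is another zinc finger protein, known for its part in chromatin loops, and its recognition sequence is unrelated to the SBS.

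Matrices for these elements were learned from peaks at promoters and outside genes on odd-numbered autosomes, so that no intragenic peak took part in them. Promoter and distal peaks of the classes compared below did take part, among them peaks on the repeats described below. The most frequent letters of the matrices, with N where no base reached a majority, were the following, shown because all hits below refer to them.
SBS1: ACANTTCCCAGNATGCCNNGCGNCNN
SBS2: NGGACTACANTTCCCAGNATNCCNN
CTCF: NNNNCCACNAGGGGGCNCNN
A hit is a site that passes a matrix p-value of 1e-05 within 100 bp of the summit, the position of the highest signal of a peak. An SBS hit is one to either SBS matrix.

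The intragenic untreated-only peaks with the highest scores that contain an SBS hit are shown first, to give the letters of such hits. Those on repeat A or B, the repeats described below, were left out, but other repeated sequence was not excluded. The score is the integer that the peak caller wrote, used only to rank the untreated list. Each is written 5′ to 3′ on the strand of the hit, from hg38, with the hit in capitals.
SYT2: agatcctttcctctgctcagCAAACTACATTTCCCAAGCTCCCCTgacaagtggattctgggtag
IFT140: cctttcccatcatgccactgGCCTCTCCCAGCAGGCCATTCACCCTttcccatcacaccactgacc
KCNJ14: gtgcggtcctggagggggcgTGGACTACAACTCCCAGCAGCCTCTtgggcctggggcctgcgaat
GYS1: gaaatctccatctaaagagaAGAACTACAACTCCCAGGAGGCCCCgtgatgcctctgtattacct
MAP3K2: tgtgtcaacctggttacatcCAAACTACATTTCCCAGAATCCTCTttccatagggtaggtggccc
LRFN2: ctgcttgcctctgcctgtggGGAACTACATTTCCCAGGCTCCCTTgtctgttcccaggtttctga
SLX4IP: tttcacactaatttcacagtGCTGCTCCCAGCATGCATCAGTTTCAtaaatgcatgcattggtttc
In 5 of these 7 the hit is to SBS2 and contains the letters of its 5′ part, while the hits in IFT140 and SLX4IP are to SBS1 and lack them. Of the 680 peaks with an SBS hit outside the repeats, 77.35% passed the SBS1 matrix alone, so these 7 are not typical.

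The highest score of all, 10113, was that of the peak at chr1:202667174-202667592 in intron 1 of SYT2, a calcium sensor of synaptic vesicle release. Its fold enrichment at the summit, a ratio to the local background given by the authors' call, was 28.8, and it ranked 1782 in the untreated list. Its nearest peak of the dTAG-V1 list was 25353 bp away. The peak at chr16:1575481-1576022 in intron 13 of IFT140, a component of the transport machinery of cilia, had a score of 8025 and a fold enrichment of 22.7. In intron 2 of KCNJ14, which encodes an inward rectifier potassium channel, the peak at chr19:48462357-48462920 had a score of 5930 and contained a CTCF hit as well. Even so, only 2 of the 1906 peaks were among the 2043 highest scores of the untreated list.

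The other 4 of this group lay at chr19:48982356-48982592 in intron 6 of GYS1, the muscle glycogen synthase (score 4772), at chr2:127365130-127365724 in intron 1 of the kinase gene MAP3K2 (4274), at chr6:40398748-40399300 in intron 2 of LRFN2, a synaptic adhesion gene (4112), and at chr20:10446688-10447450 in intron 1 of SLX4IP (3567). The peak in GYS1 was 807 bp from the nearest dTAG-V1 peak and had a fold enrichment of 7.84, the lowest of the 7. The one in LRFN2 was 89787 bp away from any.

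The scores of the 1906 peaks ranged from 20 to 10113 with a median of 142.5, and fold enrichment from 1.64 to 28.8 with a median of 3.52. Shared intragenic peaks, the 3537 peaks inside genes that did overlap the dTAG-V1 list, had a median score of 121 and a median fold enrichment of 3.24, but their highest score was 166430. The untreated-only peaks were therefore spread over the list below its highest decile. Decile 10, the lowest scores, held the most of them (301, or 15.8%), followed by decile 4 (253) and decile 3 (249). Their median width was 293 bp, against 365 bp for shared intragenic peaks.

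The rule has 2 edges. The smallest gap between an intragenic untreated-only peak and a dTAG-V1 peak was 1 bp, and 31 had such a peak within 100 bp, 92 within 500 bp and 470 within 5000 bp, with a median of 15112 bp. On the other side of the edge, 46 of the shared intragenic peaks overlapped by 100 bp or less, the smallest overlap being 2 bp, with a median of 314 bp. Of the 1906 peaks, 19 lay within 100 bp outside a TSS window, and 24 untreated-only peaks in genes lay within 100 bp inside one.

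An SBS hit was present in 915 of the 1906 intragenic untreated-only peaks, or 48.0% (95% Wilson interval 45.8 to 50.3). It was present in 3.94% of windows of the same length 1 kb to either side. Of the shared intragenic peaks, 517 contained an SBS hit, or 14.6% (13.5 to 15.8), and their flanks gave 4.10%. The difference was 33.4 percentage points (95% interval 30.9 to 35.9; two-sided Fisher's exact test, adjusted p = 8.94e-151, Benjamini-Hochberg over 26 comparisons). The GC content of the windows was 44.1% ± 7.77 (SD over peaks) for untreated-only and 44.1% ± 8.79 for shared peaks. With the fixed seed letters of the SBS and at most 1 mismatch in place of the matrices, the difference was 2.30 points, with hits at p 1e-06 it was 19.8 points, and with 50% reciprocal overlap as the rule 22.0 points. Intervals and tests on shares cover counting error over peaks of these lists, not the spread between samples.

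CTCF hits were the reverse. They were present in 94 of the intragenic untreated-only peaks, or 4.93% (4.05 to 6.0), and in 828 of the shared intragenic peaks, or 23.4% (22.0 to 24.8). The difference was -18.5 points (-20.2 to -16.8; Fisher's exact test, adjusted p = 1.98e-77). With windows around the centre of the peak in place of the summit it was -10.9 points. The flanks of the untreated-only peaks gave 0.971%. Among the 7726 intragenic peaks found only with dTAG-V1, given as values because their list has its own scale, 47.1% contained a CTCF hit and 3.66% an SBS hit.

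**Figure D1:**
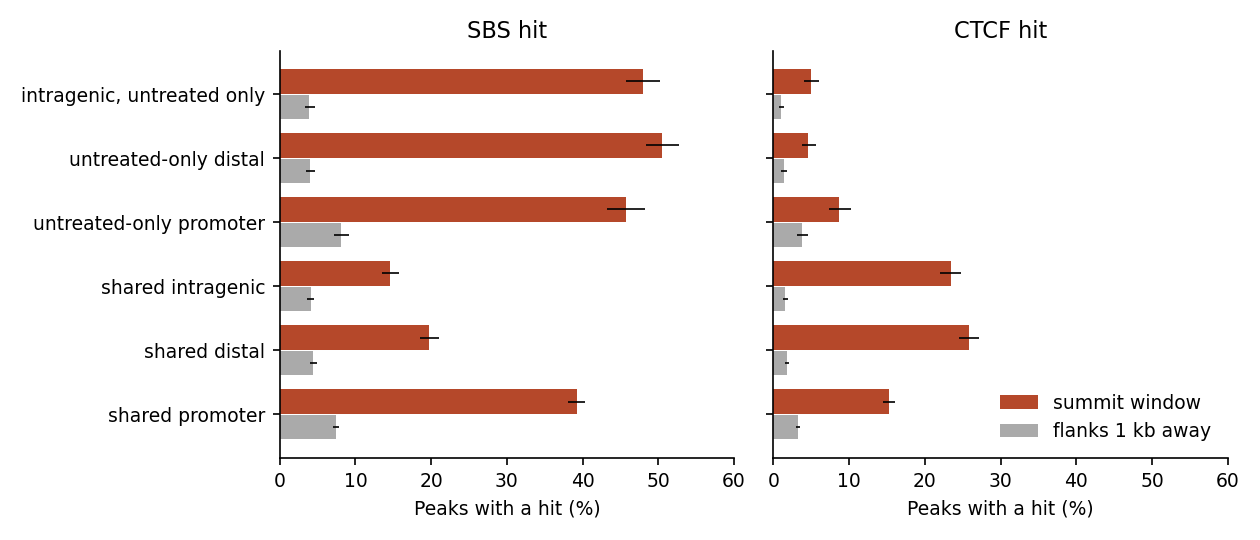
Share of peaks (percent) of the untreated list with an SBS hit (left) or a CTCF hit (right) within 100 bp of the summit, in red, and of windows 1 kb away, in grey, for the 6 classes of peaks; error bars are 95% Wilson intervals. The 3 untreated-only classes hold SBS hits in 45.8% to 50.6% of their peaks and CTCF hits in 4.56% to 8.67%, whereas shared intragenic peaks hold them in 14.6% and 23.4%.

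Peaks found only untreated at other places were compared in the same way. Of 2041 untreated-only distal peaks, 50.6% contained an SBS hit, and the difference of -2.56 points (-5.67 to 0.564) was not past the threshold (Fisher's exact test, adjusted p = 0.223). CTCF hits were present in 4.56% of them (difference 0.375 points, -0.955 to 1.72; Fisher's exact test, adjusted p = 0.679). Against the 1534 untreated-only promoter peaks, of which 45.8% contained an SBS hit, the difference was 2.24 points (-1.11 to 5.59; Fisher's exact test, adjusted p = 0.293). CTCF hits were present in 8.67% of these promoter peaks, so that the intragenic peaks were lower by a difference of -3.74 points (-5.49 to -2.05; Fisher's exact test, adjusted p = 6.51e-05). Promoter windows were richer in GC, at 55.7% ± 11.3 (SD over peaks). Distal and promoter peaks on odd-numbered autosomes had trained the matrices. On even-numbered chromosomes alone the SBS difference was -4.23 points (-8.94 to 0.49) against distal and 3.62 (-1.47 to 8.68) against promoter peaks. For CTCF it was 0.763 (-1.31 to 2.85) and -2.06 points (-4.67 to 0.397).

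Because the share with an SBS hit falls along the list, the classes were also compared within deciles of the score. In decile 2, 153 of 181 intragenic untreated-only peaks contained an SBS hit (84.5%, 78.6 to 89.1), against 158 of 253 shared intragenic peaks (62.5%, 56.3 to 68.2). The widest difference was in decile 4, with 72.7% against 10.1% and a difference of 62.6 points (55.8 to 68.4). In decile 10 it was 10.3% against 3.94%, a difference of 6.36 points (2.53 to 10.6). The interval of the difference excluded 0 in each of deciles 2 to 10, and decile 1 held only 2 untreated-only peaks. For CTCF the share of untreated-only peaks lay between 2.69% and 8.16% in deciles 2 to 10, while that of shared peaks ranged from 9.49% in decile 2 to 33.7% in decile 9. The interval of the CTCF difference excluded 0 in deciles 3 to 10 and included it in decile 2 (-3.96 points, -8.88 to 1.34).

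**Figure D2:**
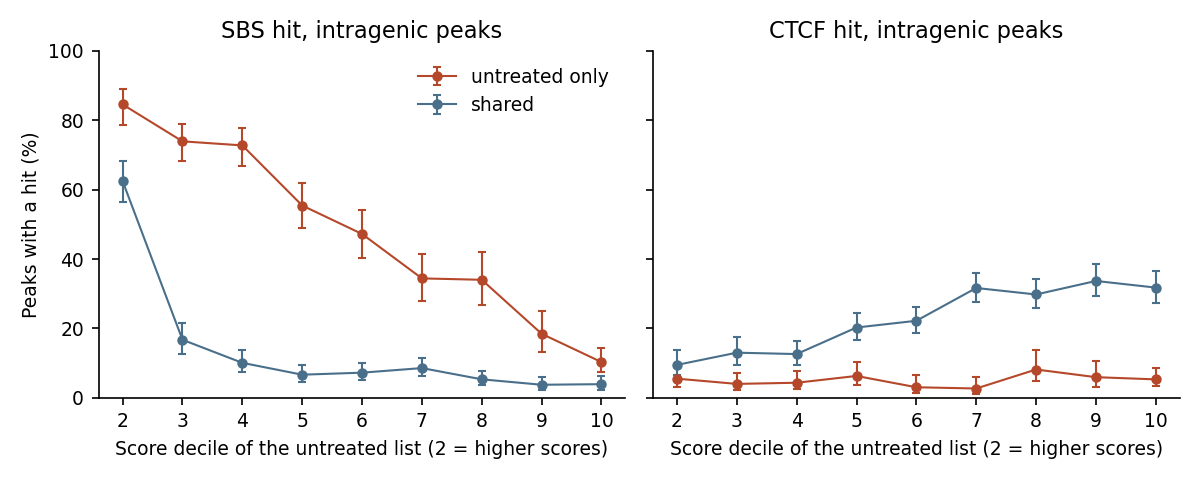
Share of intragenic peaks (percent) with an SBS hit (left) and a CTCF hit (right) against the score decile of the untreated list, from decile 2 to decile 10 (lowest scores), for peaks found only untreated (red) and shared peaks (blue), with 95% Wilson intervals. The red SBS points run from 84.5% to 10.3% and lie above the blue ones in each decile shown, and the red CTCF points stay at or below 8.16%.

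SBS hits lay under the summits. The centre of the hit was at a median of 10.5 bp from the summit, and within 25 bp of it in 743 of 915 peaks (81.2%, 78.5 to 83.6). In shared intragenic peaks the median was 12 bp and 68.3% (64.1 to 72.1) were within 25 bp. The 94 CTCF hits of the untreated-only peaks were at a median of 30.5 bp, with 40.4% (31.1 to 50.5) within 25 bp, whereas those of shared intragenic peaks were at a median of 21.5 bp, with 56.9% (53.5 to 60.2) within 25 bp.

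**Figure D3:**
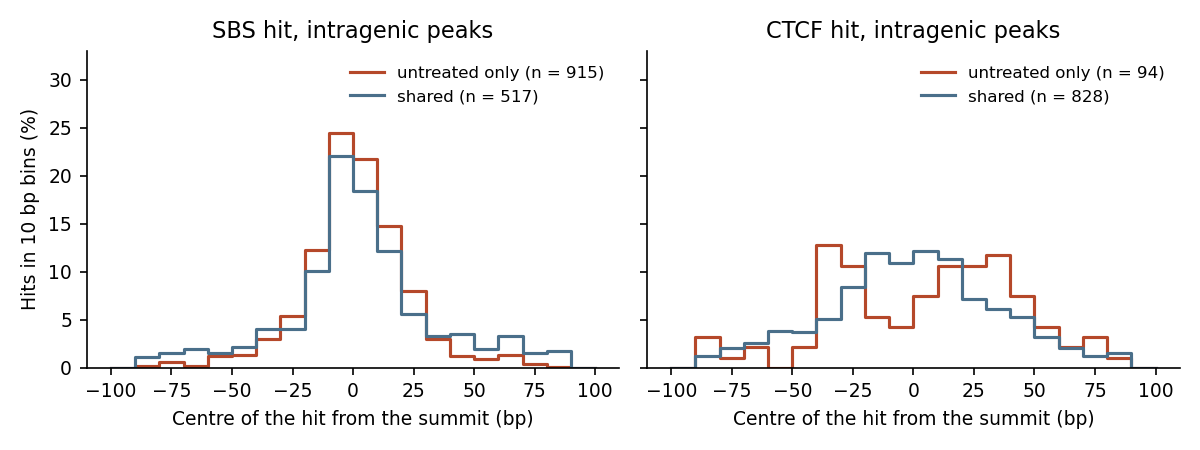
Distance (bp) from the summit to the centre of the hit, in bins of 10 bp as percent of hits, for SBS (left) and CTCF (right) hits of intragenic peaks found only untreated (red) and shared (blue). SBS hits of both classes pile up at the summit, with medians of 10.5 and 12 bp in either direction, and the CTCF hits of the untreated-only peaks, of which there are 94, are spread more widely.

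The kind of SBS was compared with that of shared peaks. Of the 915 intragenic untreated-only peaks with an SBS hit, 552 passed the SBS1 matrix alone (60.3%), 70 the SBS2 matrix alone (7.65%) and 293 both (32.0%). A hit to SBS2, alone or with SBS1, was thus present in 39.7% (36.6 to 42.9) of them, against 55.5% (51.2 to 59.7) of the 517 shared intragenic peaks with an SBS hit and 52.9% (49.9 to 55.9) of the 1032 untreated-only distal ones. These intervals do not overlap that of the intragenic untreated-only peaks, and no further test was made. The classes differ in score, and the kinds were not compared within deciles. Of the 517 shared intragenic peaks, 126 lay in decile 1 and 158 in decile 2, against 2 and 153 of the 915. On the repeats lay 209 of the 363 peaks with an SBS2 hit. Without them the share with SBS2 was 22.6% (19.7 to 25.9) of 680 intragenic untreated-only peaks and 40.6% (35.8 to 45.6) of 382 shared intragenic peaks. Copies too diverged to be found can remain in these counts.

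The letters of the SBS1 hits were counted in the 650 intragenic untreated-only peaks with such a hit outside the repeated sequences described below. The core CCC at positions 7 to 9 was present in 99.7%, 100% and 100% of them, and the C at position 16 in 98.8%. The A at position 10 was present in 98.5% of these hits, in 88.1% of the 336 hits of shared intragenic peaks, and in 73.7% of the 2756 hits of shared promoter peaks. The A and the T at positions 13 and 14 were present in 79.5% and 73.9%, against 64.3% and 50.9% in shared intragenic peaks. Shared intragenic hits were likewise counted outside the repeats, and shared promoter hits in all such peaks. At positions 1, 2, 12 and 17 to 26 the order was the other way. The C at position 19, for example, was present in 22.0% of the untreated-only, 27.4% of the shared intragenic and 51.0% of the shared promoter hits. The A at position 1 was present in 32.0% of the untreated-only hits, 43.8% of the shared intragenic and 45.2% of the shared promoter hits. The C at position 2 was present in 37.7%, 59.2% and 69.9% of the same classes, and the G at position 22 in 36.6%, 41.7% and 66.1%. The letters, too, were not compared within deciles of the score. Peaks that also passed the SBS2 matrix were not set apart. They were 124 of the 650 untreated-only, 109 of the 336 shared intragenic and 1329 of the 2756 shared promoter peaks.

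Short words were counted without any matrix. Ranked by their excess over the flanks, the first 5 words of 8 bases within 100 bp of the summit were ATTATGGG, ATTCTGGG, ATTTCCCA, CTGGGAAA and GCTGGGAA, each counted with its reverse complement. ATTCTGGG, whose complement CCCAGAAT continues the SBS core, was present in 11.3% of the intragenic untreated-only peaks, 0.892% of their flanks and 2.29% of shared intragenic peaks. ATTATGGG was present in 10.2%, 0.682% and 0.990% of the same windows. CTGGGAAA, with the complement TTTCCCAG, was present in 14.4% and in 1.97% of the flanks, while untreated-only distal peaks held it in 20.8%.

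Words of 16 bases showed that a part of the peaks share longer stretches. The most frequent one was present in 44 of the 1906 peaks and in 2 of the 3537 shared intragenic peaks. From it a profile of the sequence around it was built, called repeat A, and from the remaining peaks in the same way a second one, repeat B. The profiles were built from the intragenic untreated-only peaks, so that they are a description of them, and no test was made on the families. The consensus of repeat B is shown with the 25 bases in capitals over which the SBS hits are centred, followed by copies under high-scoring peaks, each on the strand of the profile with its SBS hit in capitals.
Repeat B: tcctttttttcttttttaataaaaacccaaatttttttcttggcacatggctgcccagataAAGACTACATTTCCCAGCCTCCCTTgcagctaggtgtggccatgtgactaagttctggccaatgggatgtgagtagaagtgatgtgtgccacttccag
RAB10: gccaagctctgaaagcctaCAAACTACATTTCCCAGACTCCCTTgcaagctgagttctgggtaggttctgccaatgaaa
NPSR1: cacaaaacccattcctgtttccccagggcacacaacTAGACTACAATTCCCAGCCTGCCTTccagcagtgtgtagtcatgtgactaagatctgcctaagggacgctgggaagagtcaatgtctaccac
SNX29: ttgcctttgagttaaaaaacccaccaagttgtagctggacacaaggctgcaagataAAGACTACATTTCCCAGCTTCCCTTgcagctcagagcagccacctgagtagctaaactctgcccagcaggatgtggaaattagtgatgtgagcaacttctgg
In repeat B the capitals, which contain the word it was built around, read as an SBS2 element on the strand shown.

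Repeat A lay at the summit of 125 of the 1906 intragenic untreated-only peaks (6.56%, 5.53 to 7.76) and repeat B at 175 (9.18%, 7.97 to 10.6). Shared intragenic peaks held repeat A in 6 of 3537 (0.170%) and repeat B in 135 (3.82%). Untreated-only distal peaks held them in 166 (8.13%) and 271 (13.3%) of 2041. Of the intragenic peaks found only with dTAG-V1, 1 of 7726 lay on repeat A and 6 on repeat B. In windows 1 kb from the untreated-only peaks, repeat A was present in 0.289% and repeat B in 0.0787%.

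In all places together, 353 peaks of the untreated list lay on repeat A, and 27 of them overlapped a dTAG-V1 peak, so that 92.3% (89.1 to 94.7) were found only untreated. On repeat B lay 961 peaks, of which 479 overlapped one, so that 50.2% (47.0 to 53.3) were found only untreated. Over the whole list this share was 26.8%, and over its intragenic peaks 35.0%. The profiles were built from untreated-only peaks and the counts use the contrast of the rule, so that nothing is read from them.

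The profile of repeat A is 143 bp long and matched 68097 copies in the genome, and that of repeat B is 159 bp long and matched 14571. Few copies carried a peak. Inside genes and away from start sites, 132 of 19036 copies of repeat A were under a peak of the untreated list (0.693%), and 310 of 4518 copies of repeat B (6.86%). For repeat B these were nearly all copies with an SBS hit, since 305 of 2004 such copies (15.2%) were under a peak, against 5 of 2514 copies without a hit (0.199%). For repeat A it was 66 of 5834 copies with a hit (1.13%) and 66 of 13202 without (0.500%). Copies of repeat B had a median length of 115 bp with a hit and 87 bp without, and those of repeat A 131 bp in either case. The authors removed reads of low mapping quality. Neither the length of the copies nor how well reads map to them was tested.

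Of the peaks on repeat B, whose profile was built around SBS2 letters, 174 of 175 contained an SBS hit, 159 of them to SBS2. Of those on repeat A, 61 of 125 did (48.8%), 50 of them to SBS2, and of the 1606 peaks on neither, 680 (42.3%). Scores were highest on repeat B, with a median of 573 (quartiles 313 and 1246), followed by repeat A with 166 (117 and 259) and the others with 122 (58 and 290.5). The highest score on repeat B was 6039, at chr2:26073236-26073916 in intron 1 of RAB10, a small GTPase of vesicle transport, followed by 4405 at chr7:34839592-34840082 in intron 6 of NPSR1, the neuropeptide S receptor. A peak at chr3:33128753-33129159 in intron 3 of CRTAP, a gene of collagen modification (score 3359), and one at chr16:12311816-12312362 in intron 15 of the sorting nexin gene SNX29 (3322) came next. The highest score on repeat A was 1862.

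**Figure D4:**
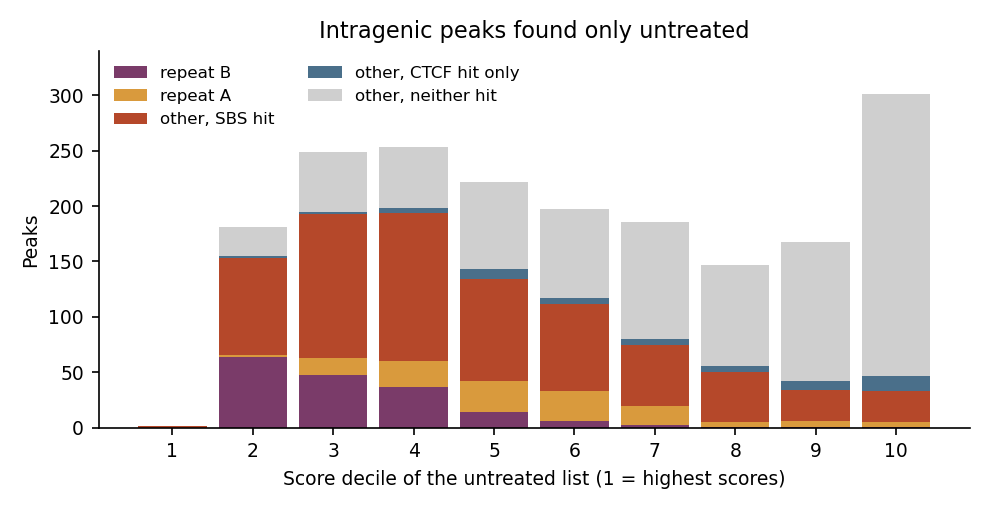
Number of intragenic untreated-only peaks in each score decile of the untreated list, from decile 1 (highest scores) to decile 10, divided into those on repeat B, on repeat A, and elsewhere with an SBS hit, a CTCF hit only, or neither. Repeat B is found mainly in deciles 2 to 4 (64, 48 and 37 peaks), repeat A in deciles 3 to 7, and peaks with neither hit make up 254 of the 301 in decile 10.

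Most SBS hits lay at a single place of each profile. On repeat A, 57 of 61 SBS hits (93.4%) were centred within 10 bp of position 85 of the profile, and on repeat B, 169 of 174 (97.1%) within 10 bp of position 74. On repeat B this place lies on the word that the profile was built around. The summits on repeat B had a median position of 82, and 139 of 175 (79.4%) were within 10 bp of it. The summits on repeat A were further from the hits, with a median position of 66 and quartiles of 54 and 75.

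**Figure D5:**
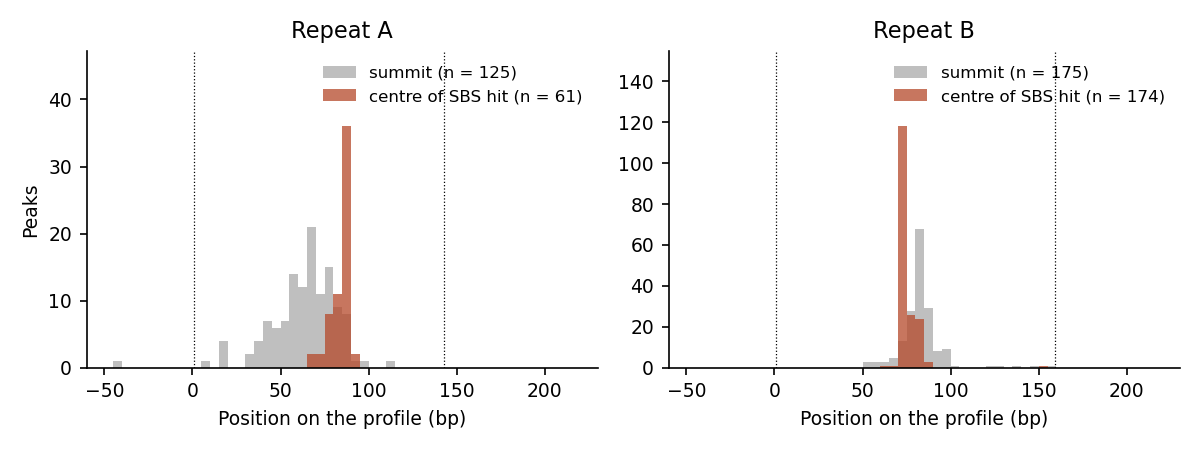
Position (bp) on the profile of repeat A (left) and repeat B (right) of the peak summits (grey) and the centres of SBS hits (red) for intragenic untreated-only peaks, in bins of 5 bp, with dotted lines at the ends of the profile and insertions and deletions in single copies ignored. SBS hits stand in a narrow band at position 85 of repeat A and 74 of repeat B, and the summits of repeat A lie on 1 side of the band with a median of 66.

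Repeated sequence in general was measured by the share of windows in which at least 50% of the words of 16 bases occur 20 times or more in the genome. This held for 171 intragenic untreated-only peaks (8.97%, 7.77 to 10.3) and 98 shared intragenic peaks (2.77%), a difference of 6.20 points (4.86 to 7.65; Fisher's exact test, adjusted p = 1.40e-21). It fell to 0.565 points (-0.422 to 1.68) when peaks on repeats A and B were left out of both classes. In the flanks of the untreated-only peaks the share was 17.6%, higher than at the peaks themselves.

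The strand of the SBS hit was compared with that of the host gene in the 898 peaks with a hit whose host genes lie on 1 strand. The hit was on the strand of the gene in 361, or 40.2% (37.0 to 43.4), which differed from 50% (two-sided exact binomial test, p = 4.68e-09). This rested on repeat B, where the hit was on the strand of the gene in 28 of 173 peaks (16.2%, 11.4 to 22.4), and to a lesser extent on repeat A, with 22 of 61 (36.1%, 25.2 to 48.6). In the 664 peaks on neither repeat it was 46.8% (43.1 to 50.6; two-sided exact binomial test, p = 0.112). Copies of 1 repeat share their sequence and are not independent sites. Shared intragenic peaks gave 36.1% (32.0 to 40.3) of 510. This value was not split by repeat, and 132 copies of repeat B with an SBS hit were under shared intragenic peaks.

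Other recognition sequences were counted as fixed letters on both strands, in windows of the same length. For AP-1 (TGANTCA), 223 intragenic untreated-only peaks contained the letters (11.7%), against 6.48% of their flanks and 8.43% of shared intragenic peaks, a difference of 3.28 points (1.60 to 5.03; Fisher's exact test, adjusted p = 4.76e-04). Of these, 84 lay on repeat A, and without peaks on the repeats the difference was -0.661 points (-2.23 to 1.02). The letters of RBPJ (CGTGGGAA) were present in 16 peaks, 11 of them on repeat A. Those of the 5′ part of SBS2 (ACTACA) were present in 296 (15.5%), 117 of them on repeat B, whose starting word contains them. Both were more frequent than in shared intragenic peaks (Fisher's exact test, adjusted p = 0.0319 and 0.0129), by 0.529 and 2.78 points, and without the repeats the differences were -0.0748 and -0.0820 points. The 5′ part of the SBS was then present in 9.90% of untreated-only and 9.98% of shared intragenic peaks.

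The letters of TEAD (GGAATG) kept their difference without the repeats. Their reverse complement CATTCC can overlap the TTCC of an SBS, and peaks with an SBS hit were not set apart. The TEAD letters are therefore not separated from the SBS. The TEAD letters were present in 275 intragenic untreated-only peaks (14.4%), 10.7% of the flanks and 11.1% of shared intragenic peaks (difference 3.29 points, 1.44 to 5.22; Fisher's exact test, adjusted p = 0.00196), and without the repeats in 14.5% and 10.9%. The letters TTCCCA of the SBS core were present in 898 (47.1%) and 24.8%, and without the repeats in 40.1% and 22.1%. The letters AGATAAG of the GATA factors were less frequent, with 107 peaks (5.61%) against 8.11% of the shared ones (-2.50 points, -3.84 to -1.09; Fisher's exact test, adjusted p = 0.00214), and 3.02% in the flanks. The E-box (CACGTG), SOX (CATTGTT), FOX (TGTTTAC), octamer (ATTTGCAT), NFY (CCAATCAG), CRE (TGACGTCA), ETS (CCGGAAGT), SP/KLF (GGGGCGGGG) and NFI letters were present in 0.0525% to 4.20% of the untreated-only peaks, and their differences from shared peaks were not past the threshold. Without the repeats the E-box turned from 0.389 to -0.959 points (-1.79 to -0.0238), and 34 of the 64 untreated-only peaks with its letters lay on them. The octamer went from 0.589 (-0.00460 to 1.30) to 0.647 points (0.00392 to 1.44). The NRF1 and RFX letters were in none of the windows of both classes, which allows a share of up to 0.157% of the untreated-only and 0.0848% of the shared intragenic peaks.

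Peaks with neither an SBS nor a CTCF hit numbered 935, or 49.1% of the intragenic untreated-only peaks, and had lower scores. Their median score was 84 (quartiles 43 and 163) and their median fold enrichment 2.84, against 279 (135 and 572) and 4.71 for those with an SBS hit. A dTAG-V1 peak lay within 500 bp of 68 of them (7.27%) and of 23 with an SBS hit (2.51%). At the more permissive p-value of 5e-05, 310 of the 935 contained an SBS site (33.2%, 30.2 to 36.2), as did 13.3% (11.8 to 14.9) of their flanks and 11.1% (9.89 to 12.5) of the shared intragenic peaks with neither hit. Their leading word of 8 bases was again ATTATGGG, present in 108 (11.6%) and in 0.695% of their flanks. The 935 include peaks on repeat A, where only 61 of 125 had an SBS hit, and they were not split by repeat. Over all 1906 peaks the word was present in 195, of which 105 lay outside the repeats.

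The highest-scoring ones without either hit were at chr3:71166571-71167166 in intron 6 of FOXP1, a forkhead transcription factor (score 3961), at chr1:167923262-167923890 in intron 3 of MPC2, a subunit of the mitochondrial pyruvate carrier (3709), and at chr16:75064357-75064829 in intron 1 of the ubiquitin ligase gene ZNRF1 (3123). A peak at chr3:149638495-149639094 in intron 2 of WWTR1, a transcriptional coactivator (2398), and one at chr7:148297253-148297744 in intron 21 of CNTNAP2, a neuronal adhesion gene (2248), followed. The first was 1505 bp and the second 745 bp from a dTAG-V1 peak, and that in ZNRF1 46430 bp.

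A CTCF hit without an SBS hit was present in only 56 of the 1906 peaks, with a median score of 86. Of the 3 with the highest scores, 2 are shown on the strand of the hit, which is in capitals, to set their letters beside those of the CTCF matrix.
SRPX2: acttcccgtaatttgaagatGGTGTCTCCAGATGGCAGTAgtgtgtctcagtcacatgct
ABCC8: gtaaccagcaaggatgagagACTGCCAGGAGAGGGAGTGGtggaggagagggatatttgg
The 3 lay at chrX:100654338-100654712 in intron 3 of SRPX2 (score 1256), at chr11:17473408-17473716 in intron 2 of ABCC8, the sulfonylurea receptor of a potassium channel (1081), and at chr14:61233345-61233779 within PRKCH, a protein kinase C gene, outside its canonical transcript (766). The peak in PRKCH lay on repeat A. The CTCF hit was 29.5 bp from the summit in SRPX2, 68.5 bp in ABCC8 and 18.5 bp in PRKCH.

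Within their host genes, most of the intragenic untreated-only peaks were intronic. The summit of 98 lay in an exon of a protein-coding transcript (5.14%, 4.24 to 6.23), as did that of 5.57% of the shared intragenic peaks (difference -0.428 points, -1.64 to 0.868; Fisher's exact test, adjusted p = 0.627). On the canonical transcript of the host, 1590 summits were in introns, 36 in coding exons and 50 in the 3′ UTR, and 230 were outside it. Intron 1 held 563 (29.5%, 27.5 to 31.6), against 22.7% (21.3 to 24.1) of shared intragenic peaks. With the transcript cut into 5 equal stretches, the stretch at its start held 26.1% and that at its end 16.3% of the 1676 untreated-only summits inside it, whereas shared peaks gave 21.4% and 20.9%. The median distance to the nearest start site of any transcript was 11030 bp, and 10206 bp for shared intragenic peaks.

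The peaks were in 1539 host genes, of which 1235 held 1 peak and 304 more than 1, and 653 also held a shared intragenic peak. Host transcripts were long, with a median span of 172.1 kb over peaks (170.2 kb for shared intragenic peaks), while the median protein-coding gene spans 27.5 kb. The most peaks, 8, were in FOXP1, a gene of 629.3 kb, with an SBS hit in 2 of them, and 9 shared peaks lay in it too. AUTS2, GMDS, GPC5 and PCDH9 held 7 each, with SBS hits in 2, 2, 3 and 2 of them, and BBS9, GPC6 and NFIA 6 each, with SBS hits in 3, 1 and 3. These genes span from 597.5 kb (NFIA) to 1475 kb (GPC5), and each also held between 7 and 17 shared intragenic peaks.

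A peak at the promoter of the host gene was present in the untreated list for 959 of the 1906 intragenic untreated-only peaks (50.3%, 48.1 to 52.6) and for 54.8% (53.2 to 56.4) of the shared intragenic peaks, a difference of -4.48 points (-7.25 to -1.70; Fisher's exact test, adjusted p = 0.00500). With 1 peak per host gene it was -1.97 points (-5.26 to 1.32).

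Host genes with mitochondrial products, a class of ZNF143 target genes by their promoters, were counted by their symbols. Mitochondrial ribosomal protein genes made up 4 of the 1539 host genes (0.260%, against 0.391% of all protein-coding genes and 0.218% of the host genes of shared intragenic peaks), and SLC25 carrier genes 6 (0.390%, against 0.241% and 0.305%). NDUF genes of complex I made up 1 (0.0650%, against 0.241% and 0.0870%) and COX and ATP5 genes 1 (0.0650%, against 0.230% of all and none of the shared hosts), and none of the 27 TIMM and TOMM genes was a host in either class. In COX10, a gene of cytochrome c oxidase assembly, 2 peaks lay in intron 4, at chr17:14152926-14153148 (score 141) with an SBS2 hit and at chr17:14156779-14156989 (57) with an SBS1 hit. SBS1 hits were also under the peaks at chr1:54186155-54186386 in intron 2 of MRPL37 (190) and at chr3:139056014-139056377 in MRPS22 (226), while those in MRPS27 (43) and MRPS6 (50) had neither hit. In SLC25A1, the mitochondrial citrate carrier, a peak at chr22:19176958-19177221 in intron 5 (69) contained an SBS2 hit. The 4 peaks in intron 1 of SLC25A21, with scores from 60 to 212, and those in SLC25A24 (30), SLC25A25 (448) and SLC25A26 (101) had neither hit, and of the 2 in SLC25A48, 1 (205) lay on repeat B with an SBS2 hit and 1 (153) contained an SBS1 hit. The number of these genes is too low for a comparison between classes.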

How the data were processed

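The authors mapped the read pairs with bwa mem, kept proper pairs above a mapping quality threshold with SAMtools, removed duplicates with Picard and called narrow peaks with MACS2, with no control library named. They deposited 1 hg38 list for each condition. In the deposited lists, the score is an integer that MACS2 derives from the −log10 q-value, which was used in an alternative. Fold enrichment, a ratio over the local background, comes from the same call by the authors. Peak names of the untreated list mention DMSO, but the labels were followed, which give no treatment. The replicate filter in the methods was unequal, with presence in all 4 replicates needed when untreated but in any 1 of 4 with dTAG-V1. It is not known if this filter was applied to the lists used here. If it was, a peak not found with dTAG-V1 was missed under the looser filter. No column holds a value for 1 sample, so that 0 such columns were left unused. Conditions were taken from the labels, and 8 of the 14 samples stand behind the lists.

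Peaks were placed with GENCODE release 44, using the start sites of all transcripts. SBS1, SBS2 and CTCF matrices were learned in 10 rounds from seed letters (at most 2 mismatches) in windows of promoter and distal peaks on odd-numbered autosomes, with a pseudocount of 0.8. The limit of 3 mismatches to the seed and the window of 100 bp around the summit were set after first matrices had drifted, before shares were computed. Copies of the repeats were found with HMMER 3.4 at 25 bits, and a summit within 50 bp of a copy was assigned to it. Copies below 25 bits counted as outside the repeats. The planned share of masked repeats could not be had from the genome used here, which is not soft-masked, and the share of windows with words of high copy number took its place. Shares have 95% Wilson intervals, differences have Newcombe intervals and two-sided Fisher's exact tests, adjusted with Benjamini-Hochberg, and orientation has an exact binomial test. Procedures were tested on simulated data. The tools were pysam 0.24.0, scipy 1.17.1, numba 0.67.0, pandas 2.3.3 and numpy 2.4.6 in Python 3.11.15.

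The peaks, lists, tests and alternatives were chosen with earlier results of these data known. Named are the 10 peaks of highest score with an SBS hit, 5 with neither hit, 3 with a CTCF hit only, up to 8 host genes with the most peaks, all peaks in the mitochondrial families, and leading words. The sequence of repeat A is not reported here. The high-scoring copies on repeat B were added after their values were seen. Chromosome 8 was left out of naming.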

Additional observations from a re-analysis of the deposited data

How the results depend on the processing

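No paired analysis was possible because the lists hold no values per replicate, and for the same reason no replicate could be left out. The share of masked repeats and its alternatives were not computed. The 2 comparisons with shared intragenic peaks kept their direction and their side of the threshold in all 12 alternatives, from 2.30 to 40.0 points for SBS and from -22.1 to -10.9 for CTCF, and the number of peaks ranged from 1566 to 2698. Those named next depended on settings, and the cause was not tested. SBS against distal peaks was -3.96 points at a −log10 q of 5 or more and -3.89 at p 1e-06, both past the threshold, and turned to 1.61 with 1 peak per host gene, 0.684 at p 5e-05 and 0.945 without the repeats. SBS against promoter peaks passed it with 50% reciprocal overlap (2.72), start sites of genes only (5.25), 1 peak per gene (6.41), windows around the centre (7.50), p 1e-06 (6.12) and the seed pattern (1.60), and turned to -0.943 in whole peaks, -2.63 at p 5e-05 and -1.75 without the repeats. CTCF against distal peaks turned to -2.21 with 50% overlap, past the threshold, and to -0.0475 (q of 5), -0.474 (p 5e-05), -0.0572 (p 1e-06) and -0.249 (seed pattern). CTCF against promoter peaks was no longer past it with 50% overlap (-1.46), p 1e-06 (-0.639) and even-numbered chromosomes (-2.06). The exonic share was -2.36 with start sites of genes only, past the threshold, and turned to 0.351 with 50% overlap and 0.265 without the repeats. The host promoter share was not past it with 50% overlap (-2.50) or 1 peak per gene (-1.97). Without the repeats, an alternative chosen after seeing the data, the high-copy difference was 0.565, orientation 46.8%, AP-1 -0.661, RBPJ -0.0748, ACTACA -0.0820 and the E-box -0.959, and the octamer passed the threshold at 0.647, while TEAD (3.64), GATA (-3.04) and the SBS core letters (18.0) kept their direction and side of it.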

Other observations

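Repeat A was found under untreated-only peaks in other places too. Of the 46 promoter peaks of the untreated list on repeat A, 11 overlapped a dTAG-V1 peak, so that 76.1% (62.1 to 86.1) were found only untreated, and of the 176 distal ones 10 did, so that 94.3% (89.9 to 96.9) were. Over all peaks of the untreated list the share was 17.1% at promoters and 33.9% at distal places. On repeat B it was 44.4% (34.1 to 55.3) of 81 promoter peaks and 47.5% (43.5 to 51.7) of 570 distal peaks. The profiles were built from untreated-only peaks and these shares use the contrast of the rule, so that nothing is read from them. Copies of a repeat are also not independent sites, which the intervals do not cover. The whole genome held 19816 copies of repeat A with an SBS hit, of which 193 were under a peak of the untreated list (0.974%), and 160 of 48281 copies without a hit were (0.331%). For repeat B these were 955 of 6259 copies with a hit (15.3%) and 6 of 8312 without (0.0722%).

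Host genes of other families fixed in the lists were compared by counts. Host genes of the intragenic untreated-only peaks included 24 ZNF genes (1.56% of host genes, against 2.58% of all protein-coding genes), 7 PTPR receptor phosphatase genes (0.455% against 0.105%), 7 ADGR adhesion receptor genes (0.455% against 0.140%), 8 KCN potassium channel genes (0.520% against 0.481%), 7 PCDH and CDH cadherin genes (0.455% against 0.441%), 1 RPL or RPS gene of 81 and 2 EIF genes of 55. Host genes of shared intragenic peaks gave 1.57%, 0.348%, 0.392%, 0.566% and 0.305% for the first 5 of these families. Both sets of host genes are longer than the median gene, and counts were not adjusted for length.

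Peaks on the repeats apart, the word that ranked first by its excess over the flanks was ATTCTGGG, present in 191 of 1606 intragenic untreated-only peaks (11.9%) and in 0.747% of their flanks. ATTATGGG, the first word over all 1906 peaks, was then present in 105 (6.54%) and ranked behind ATTCTGGG, TCCCAGAA and ATGCTGGG.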
